A study of Drosophila melanogaster with 32 samples.

Results

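The genes described here are the core of the Hedgehog pathway and a pair of factors of the lamina, the outermost neuropil of the fly optic lobe. They were chosen by name, with no measured value in the rule: hh, ptc, smo, ci, sim and gcm2, 6 of the 14161 genes in the deposited count table. All 6 passed the filter on low counts, so none was dropped. Brain RNA of Drosophila melanogaster larvae at instar 3 was measured, from animals kept at 25 °C, and each preparation pooled 500 brains.

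The 4 groups were ato IP, ato input, wild-type IP and wild-type input, with 2 libraries each. Every preparation, wild type included, carried ipcGal4 and UASRpl10Ab::GFP, so that the ribosomal protein RpL10Ab fused to GFP was made in the cells in which the ipcGal4 driver is active, which the series names as T4/T5 neurons. The ato preparations carried the ato1 allele as well, which the labels call a loss of function. Input was 10% of a brain homogenate and samples the whole brain, and IP was the RNA recovered with antibodies to GFP from the remainder.

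Hedgehog is a secreted ligand. Its receptor Patched holds the membrane protein Smoothened inactive, and binding of the ligand lifts that block, so that the zinc finger protein Cubitus interruptus (Ci) acts as an activator of transcription rather than being cut to a repressor. The gene ptc is itself a known target of the pathway. In the developing visual system, photoreceptor axons that grow from the eye disc into the brain carry Hedgehog to lamina precursor cells, where the bHLH-PAS factor gene sim and the gcm genes are known to act. Atonal is the proneural factor that founds the R8 photoreceptors of the eye disc, and it is also used in the lineage of T4/T5 neurons.

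Library totals lay between 7780123 and 12238648 counts, and between 10368 and 12533 genes had at least 1 count. The leading principal component (49.5% of the variance) separated IP from input, and the next (23%) separated ato from wild type. Levels are given as CPM, that is counts scaled by library total and by TMM factors. The transcript of ato did not differ beyond the threshold between genotypes, at 13.2 and 11.1 CPM in ato IP, 12.7 and 17.2 CPM in wild-type IP, 15.6 and 15.1 CPM in ato input and 12.9 and 12.8 CPM in wild-type input. The ato1 allele is known for changes in the coding sequence, so the level does not check the genotype. Of 8 markers of T4/T5 neurons, bi, dac and grn were higher in the IP than in the input in wild type, and these and Sox102F in ato, while ato, acj6, SoxN and AP-2 were not called in either genotype. The ato calls of grn and Sox102F were lost without ato IP 1 (adjusted p = 0.273 and 0.274), that of grn without ato input 2 (0.347) and that of Sox102F without ato input 1 (0.282). With the exon length offset the ato calls of dac (0.41, adjusted p = 0.0707), grn (0.475, 0.214) and Sox102F (0.53, 0.053) ended. Summed over 7 muscle markers, the level was 1468 and 692 CPM in ato IP, 657 and 489 in wild-type IP, 360 and 204 in ato input and 85.9 and 94.99 in wild-type input. All 7 were higher in the IP in both genotypes, and 5 in the inputs and 4 in the IPs were higher in ato. Without ato IP 1 or ato input 2, the ato calls of Act57B, Mlc2, Prm and up between IP and input were lost (adjusted p = 0.086 to 0.264). Between the IPs, Mhc (0.166) and up (0.283) were lost without ato IP 1, and up also without wild-type IP 1 (0.105) or wild-type IP 2 (0.0604). In wild type Mlc2 was lost without wild-type IP 2 (0.0863) or wild-type input 2 (0.108), and the exon length offset took sls to 0.15 (0.496). Between the inputs, bt was lost without ato input 1 (0.107) or wild-type input 2 (0.0534). Summed over 6 hemocyte markers, the level ranged from 205 to 273 CPM in the 4 IPs and from 145 to 252 CPM in the 4 inputs, and over 4 tracheal markers from 352 to 505 and from 345 to 414 CPM. Between genotypes 1 hemocyte marker (Hml) was called higher in ato, in the IPs and in the inputs, and 0 tracheal markers were called. The IP call of Hml was lost without ato IP 1 (log2 1.39) or wild-type IP 2 (0.955). The part of such cells in the values below was not tested.

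Per length of exon, ci was the highest of the 6 genes in every library, and sim and gcm2 were the lowest. In CPM per kilobase of exon, ci spanned 36.9 to 39.1 in ato IP, 46.0 to 55.1 in wild-type IP, 26.0 to 34.3 in ato input and 41.5 to 42.8 in wild-type input. Next came smo, at 11.4 to 14.4 CPM per kilobase in ato IP, 12.3 to 15.1 in wild-type IP, 12.1 to 13.1 in ato input and 11.8 to 14.4 in wild-type input. The gene ptc ranked below smo in ato IP (8.30 to 11.1), ato input (4.09 to 5.12) and wild-type input (7.35 to 8.97), with no overlap of the libraries. In wild-type IP the order was turned, ptc at 14.3 to 14.6 CPM per kilobase against 12.3 to 15.1 for smo, and the ranges overlapped. The gene hh ranked next in all 4 groups, from 2.75 CPM per kilobase in ato input to 11.0 in wild-type IP. For the lowest ranks, sim (4.002 to 4.94) lay above gcm2 (3.02 to 3.07) in wild-type IP, and gcm2 (4.05 to 5.72) lay above sim (1.73 to 1.74) in wild-type input. In both ato groups the libraries of sim and gcm2 overlapped.

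**Figure D1:**
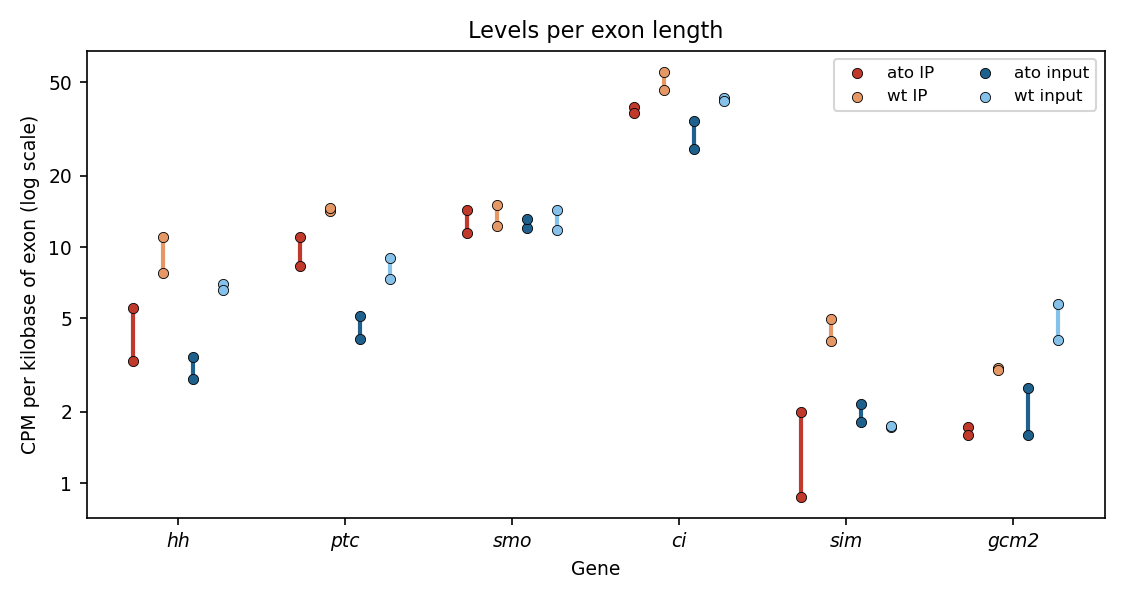
Levels of the 6 genes in CPM per kilobase of exon on a log scale, with a point for each of the 2 libraries of a group joined by a line (ato IP, wild-type IP, ato input, wild-type input from left to right within a gene). The points of ci lie above those of every other gene, the 4 groups of smo lie at one height, and sim and gcm2 lie lowest within each group.

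Between genotypes, hh and ptc were lower in ato than in wild-type whole brains, and sim was lower in the ato IP than in the wild-type IP. In the inputs 0 of the 6 genes were called higher and 2 lower, where 6.97% of the 10224 genes tested were called, 4.64% higher and 2.34% lower (edgeR quasi-likelihood test, Benjamini-Hochberg adjusted p below 0.05 over all genes). In the IPs 0 were called higher and 1 lower, where 4.69% of all genes were called, 2.82% higher and 1.88% lower. The median log2 change of the 6 genes from wild type to ato was -0.66 in the inputs and -0.73 in the IPs, beside 0.01 and -0.03 over all genes. The ato libraries lay below the wild-type libraries with no overlap for 4 of the 6 genes in the inputs (hh, ptc, ci and gcm2) and for 5 in the IPs (these and sim), and 26.4% and 23.8% of all genes did so. In the inputs the ato libraries lay above the wild-type ones for 1 of the 6, sim, and for 27.6% of all genes. In the IPs they did so for 0 of the 6 and for 21.7% of all genes. In such bulk samples, fewer cells of a type and less RNA per cell cannot be told apart.

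Between IP and input, ptc was higher in the IP in both genotypes and sim in wild type. In wild type 2 of the 6 genes were called higher and 0 lower, where 35.7% of all genes were called, 17.3% higher and 18.4% lower. In ato 1 was called higher and 0 lower, where 28.2% of all genes were called, 11.9% higher and 16.3% lower. Without overlap, 4 of the 6 lay higher in wild-type IP than in wild-type input (hh, ptc, ci and sim) and 1 lower (gcm2), beside 36.1% and 33.6% of all genes. In ato IP against ato input 2 lay higher (ptc and ci) and 0 lower, beside 31.6% and 32.6% of all genes. So many genes differ between IP and input that these counts by themselves are no result about the 6 genes. The median log2 of IP over input was 0.18 in ato and 0.37 in wild type for the 6 genes, beside 0.02 and 0.06 over all genes.

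**Figure D2:**
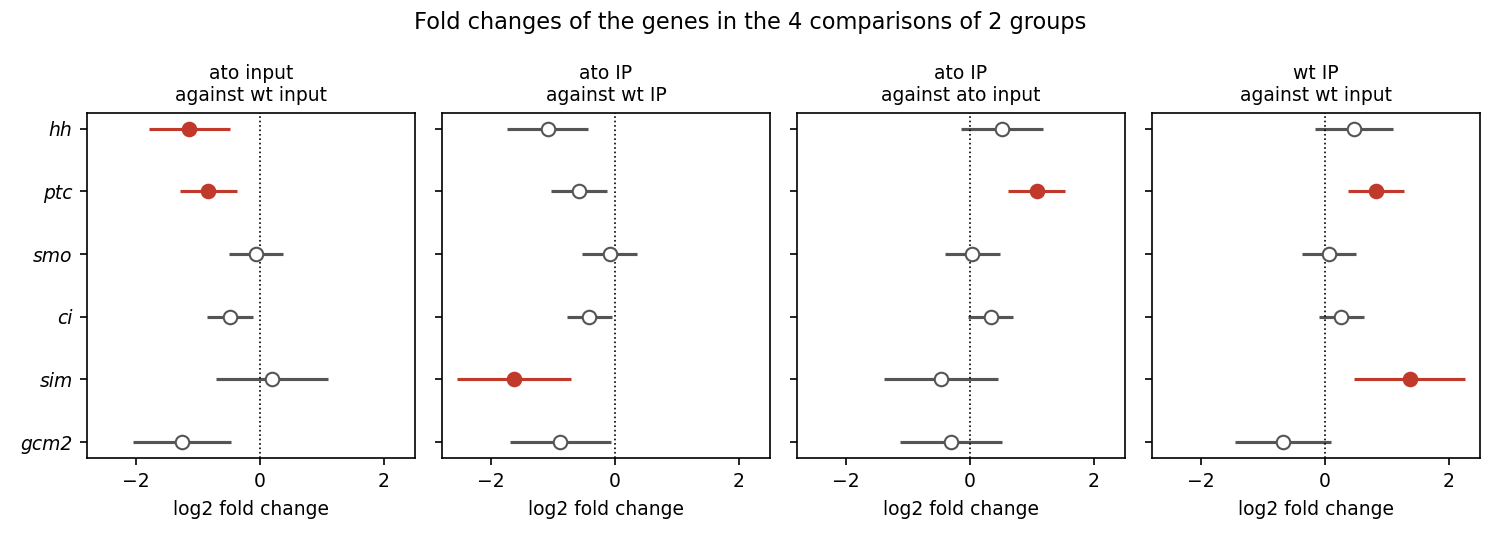
Log2 fold changes of the 6 genes in the 4 comparisons of 2 groups, the first-named group over the other, with the 95% interval of the edgeR fit. Filled red points passed the adjusted threshold: hh (-1.14) and ptc (-0.83) between the inputs, sim (-1.63) between the IPs, ptc in both comparisons of IP with input, and sim (1.37) in wild-type IP against input.

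The ligand gene hh lies on chromosome 3R at 18953425 to 18967881 (minus strand, dm3), and 9.13% of its exon length is shared with CG31457. Its level was 10.6 and 8.48 CPM in ato input, against 21.6 and 20.3 CPM in wild-type input. Both ato inputs lay at less than 11 CPM and both wild-type inputs above 20 CPM. The group means were 9.53 ± 1.48 CPM in ato and 21.0 ± 0.891 CPM in wild type (SD, n = 2 each), a 2.21-fold lower level in ato (log2 -1.14 ± 0.31, SE, 95% interval -1.80 to -0.48, edgeR adjusted p = 0.0333). This call ended without ato input 1 (-1.35, adjusted p = 0.0626), ato input 2 (-0.99, 0.139), wild-type input 1 (-1.10, 0.142) or without wild-type input 2 (-1.19, 0.114), with 1 run per library (-0.98, 0.197) and when only genes with a mean of at least 10 CPM were tested (-1.10, 0.0519).

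In the IPs, hh was at 17.1 and 10.2 CPM in ato, against 23.98 and 34.1 CPM in wild type. The groups did not overlap, but the libraries of a group differed more than in the inputs. The log2 difference was -1.09 ± 0.31 (95% interval -1.73 to -0.44), about the size of that in the inputs, and its edgeR adjusted p = 0.0513 missed the threshold. Calls came in 5 of 15 alternatives, among them no filter on low counts (-1.09, edgeR adjusted p = 0.0106). With a library left out, the difference ranged from -1.48 to -0.73. Within preparations, the log2 of IP over input for hh was 0.69 and 0.26 in ato, against 0.15 and 0.74 in wild type. The fitted values were 0.52 ± 0.32 in ato (edgeR adjusted p = 0.237) and 0.47 ± 0.30 in wild type (adjusted p = 0.234). The gene CG31457, whose exons overlap those of hh, lay between 11.2 and 18.9 CPM in the 8 libraries.

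Some photoreceptor markers, gl above all, were lower in the same groups as hh. Summed over 10 photoreceptor and eye disc genes, the level was 45.7 and 52.6 CPM in ato input, against 162 and 144 CPM in wild-type input. In the IPs the sum was 123 and 113 CPM in ato, against 200 and 199 CPM in wild type. In the inputs 4 of the 9 tested genes were lower in ato and 0 higher, namely gl, ro, lz and chp, and most of the difference in the input sum was gl. The phospholipase gene norpA was not called and had 25.2 and 26.7 CPM in ato input, against 21.3 and 19.6 CPM in wild-type input (log2 0.34), and the receptor gene sev had a log2 value of 0.20 in the IPs. The call of chp was lost with 1 run per library (edgeR adjusted p = 0.0772), and that of lz with limma-voom (0.0545), with 1 run per library (0.232), without ato input 2 (0.0646) and without wild-type input 1 (0.065). The zinc finger gene gl, which acts in photoreceptor differentiation, was at 4.28 and 5.15 CPM in ato input, against 82.7 and 75.6 CPM in wild-type input (log2 -4.06 ± 0.27, edgeR adjusted p = 9.3e-08). In the IPs gl (-3.74 ± 0.27) and the homeobox gene ro (-2.27 ± 0.50) were lower in ato. The call of ro was lost without ato IP 1 (-1.95, adjusted p = 0.0843) or wild-type IP 2 (-1.83, 0.0862), with limma-voom (0.0539) and with 1 run per library (0.169). The rhodopsin gene ninaE was at or near 0 in all libraries and was not tested. The part of photoreceptor material in the values of hh was not tested.

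**Figure D3:**
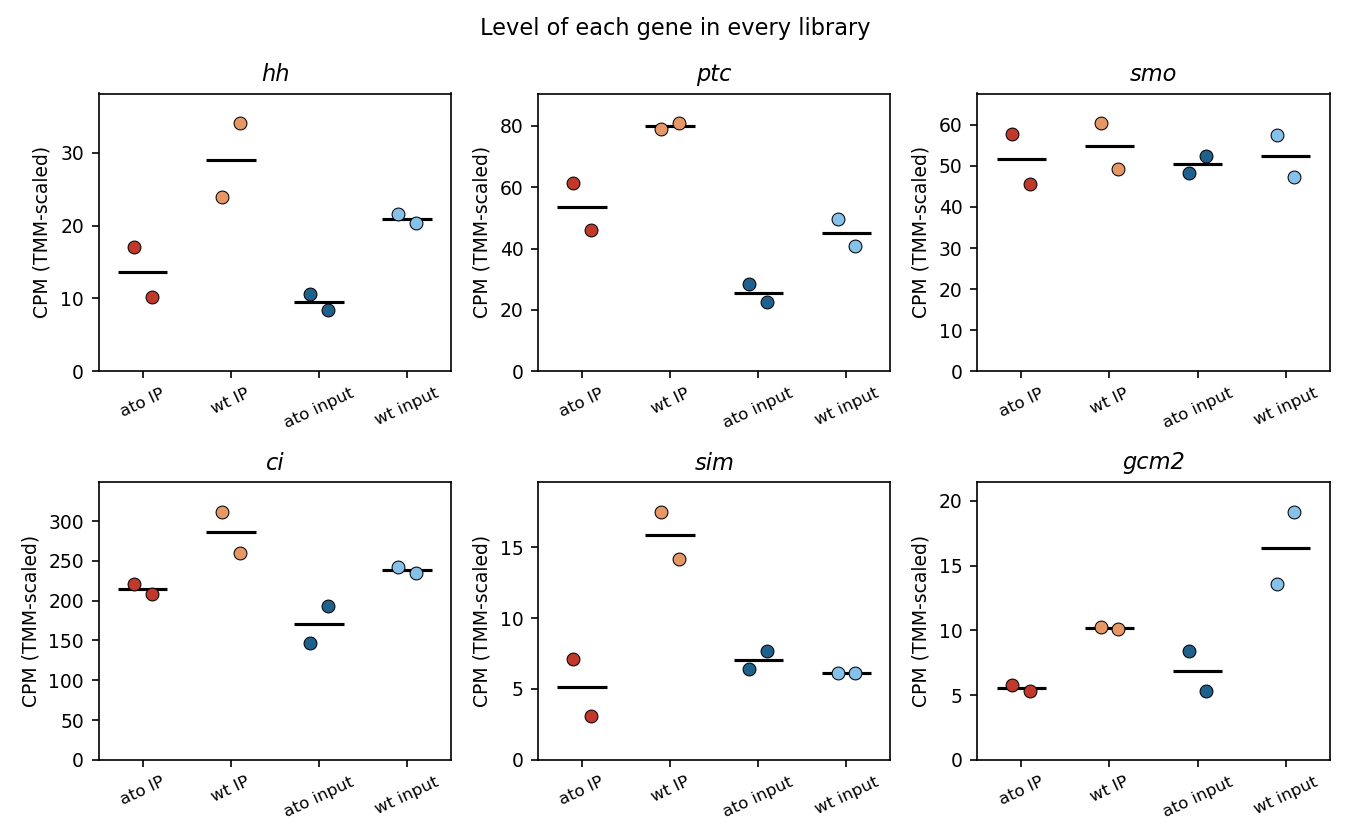
Level of each of the 6 genes in CPM, with a point per library and a bar at the mean of the 2 libraries of a group, the axes starting at 0. The points of hh, ptc and ci are lower in ato than in wild type in the IPs and in the inputs, those of smo overlap in all groups, sim is high only in the 2 wild-type IP libraries, and gcm2 is highest in the wild-type inputs.

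The receptor gene ptc lies on chromosome 2R at 4537140 to 4552728 (plus strand, dm3) and shares no exon bases with another gene of the table. In the inputs it was at 28.3 and 22.6 CPM in ato, against 49.6 and 40.7 CPM in wild type. The ato libraries both lay below 30 CPM and the wild-type libraries both above 40 CPM. The means were 25.5 ± 4.02 CPM in ato and 45.2 ± 6.35 CPM in wild type (SD, n = 2 each), a 1.78-fold lower level in ato (log2 -0.83 ± 0.22, 95% interval -1.29 to -0.37, edgeR adjusted p = 0.0283). The call was lost without ato input 2 (-0.68, adjusted p = 0.145), wild-type input 1 (-0.68, 0.268) or without wild-type input 2 (-0.97, 0.0694), with an offset for exon length (-0.66, 0.0682) and with 1 run per library (-0.88, 0.0759). The IPs held 61.2 and 46.0 CPM of ptc in ato, against 79.0 and 80.8 CPM in wild type. That difference was -0.58 ± 0.21 (95% interval -1.03 to -0.12) and did not pass (edgeR adjusted p = 0.15). Leaving out ato IP 2 took it to -0.36 (adjusted p = 0.716).

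Of the 6 genes, ptc was the one called in the IP over the input in both genotypes. Within preparations its log2 of IP over input was 1.11 and 1.02 in ato, against 0.67 and 0.99 in wild type, so all 4 preparations had more ptc in the IP. The fitted rise was 2.11-fold in ato (log2 1.08 ± 0.22, edgeR adjusted p = 0.00177) and 1.77-fold in wild type (0.82 ± 0.21, adjusted p = 0.00706). The ato call held in all 15 alternatives, between 0.64 and 1.35. The wild-type value missed the threshold without wild-type input 2 (0.67, adjusted p = 0.107) and with the exon length offset (0.40, 0.139, and 0.0655 with a block for the preparation too), an alternative that takes out the trend of the values with exon length.

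Next, smo encodes the membrane protein that passes the signal into the cell, and lies on chromosome 2L at 277588 to 282167 (plus strand, dm3), with 4.95% of its exon length shared with CG11601. It was at 57.7 and 45.7 CPM in ato IP, 60.4 and 49.2 CPM in wild-type IP, 48.3 and 52.4 CPM in ato input and 57.6 and 47.3 CPM in wild-type input. All 4 groups overlapped, and the means lay between 50.4 and 54.8 CPM. The log2 difference of ato from wild type was -0.085 ± 0.21 in the IPs (95% interval -0.53 to 0.36) and -0.058 ± 0.21 in the inputs (-0.50 to 0.38). From input to IP it was 0.037 ± 0.21 in ato and 0.064 ± 0.21 in wild type. The 4 edgeR adjusted p-values lay between 0.837 and 0.913, and the sign of each turned in at least 1 alternative.

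The transcription factor gene ci lies on chromosome 4 at 68334 to 77667 (minus strand, dm3), shares no exon bases and had 1167 to 2957 counts per library, the most of the 6 genes. In the inputs it was at 147 and 194 CPM in ato, against 242 and 234 CPM in wild type. The IPs held 221 and 209 CPM in ato, against 312 and 260 CPM in wild type. In both kinds of library the ato values lay below the wild-type values with no overlap, but neither difference passed the threshold. It was -0.48 ± 0.17 in the inputs (95% interval -0.85 to -0.12, edgeR adjusted p = 0.114) and -0.41 ± 0.17 in the IPs (-0.78 to -0.048, adjusted p = 0.216). No alternative gave either of them a call. From input to IP ci had 0.33 ± 0.17 in ato (edgeR adjusted p = 0.166) and 0.26 ± 0.17 in wild type (adjusted p = 0.244). Both turned negative with the exon length offset (-0.092 and -0.18), and the ato value passed with the DESeq2 Wald test (0.44, adjusted p = 0.04).

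The gene sim was high in the wild-type IP and low in the other 3 groups. It encodes a bHLH-PAS transcription factor known as the master regulator of the embryonic midline, which is also made in the lamina, and lies on chromosome 3R at 8883481 to 8903950 (plus strand, dm3). It was at 7.12 and 3.11 CPM in ato IP, 17.5 and 14.2 CPM in wild-type IP, 6.42 and 7.68 CPM in ato input and 6.13 and 6.16 CPM in wild-type input. Both wild-type IP libraries lay at 14 CPM or more, and the other 6 libraries lay below 8 CPM. These levels rest on few counts: 58 and 25 in ato IP (exact Poisson 95% intervals 44.0 to 75.0 and 16.2 to 36.9) against 165 and 105 in wild-type IP (140.8 to 192.2 and 85.9 to 127.1).

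In the IPs sim was 3.10-fold lower in ato than in wild type (log2 -1.63 ± 0.43, 95% interval -2.55 to -0.71, edgeR adjusted p = 0.0404). The call was lost without ato IP 2 (-1.13, adjusted p = 0.341), wild-type IP 1 (-1.47, 0.156) or wild-type IP 2 (-1.78, 0.054), and likewise with 1 run per library (-1.48, 0.207) and in a fit to only the groups compared (-1.60, 0.0619). Between the inputs the difference was 0.20 ± 0.43 (95% interval -0.70 to 1.10, edgeR adjusted p = 0.838). In wild type sim was 2.58-fold higher in the IP than in the input (1.37 ± 0.42, adjusted p = 0.019). This rise failed the threshold without wild-type IP 1 (1.19, adjusted p = 0.0973), wild-type input 1 (1.35, 0.0941) or without wild-type input 2 (1.36, 0.0856), and with 1 run per library (1.07, 0.169). In ato the value was -0.46 ± 0.44 (adjusted p = 0.46), and it turned to 0.026 without ato IP 2. Within preparations the log2 of IP over input was 0.15 and -1.31 in ato, against 1.51 and 1.20 in wild type. Some markers of T4/T5 neurons were lower in ato as well. Summed over 8 genes they were at 665 and 527 CPM in ato IP, against 870 and 843 CPM in wild-type IP, and at 449 and 405 CPM in ato input, against 593 and 572 CPM in wild-type input. Of the 8, 2 were lower in the ato IPs (grn and dac), 3 in the ato inputs (these and Sox102F), and 0 higher. Not called, acj6 (0.085) and ato (0.25, with no overlap) had positive log2 values in the inputs. The input call of grn was lost without ato input 2 (adjusted p = 0.113) or wild-type input 1 (0.113), and that of Sox102F without ato input 1 (0.0867). Their part in the value of sim was not tested.

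The lamina factor gene gcm2 is a paralog of gcm, the glial cells missing gene, and encodes a transcription factor of the same family. It lies on chromosome 2L at 9608479 to 9612708 (plus strand, dm3), 26736 bases from gcm, which is on the minus strand. The headers show no option to count reads that map to several places, so reads shared by both copies would be left out of both counts. In the inputs gcm2 was at 8.43 and 5.35 CPM in ato, against 13.6 and 19.2 CPM in wild type. The IPs held 5.77 and 5.34 CPM in ato, against 10.3 and 10.1 CPM in wild type. No ato library reached 9 CPM and no wild-type library was below 10 CPM. The difference between the inputs, 2.38-fold lower in ato (log2 -1.25 ± 0.38, 95% interval -2.04 to -0.46), lay just outside the threshold (edgeR adjusted p = 0.0537). It passed with library size alone as the scaling (-1.29, adjusted p = 0.0473), with no filter (-1.25, 0.0248), with the DESeq2 Wald test (-1.23, 0.0499), with limma-voom (-1.27, 0.0437) and with only the groups compared (-1.23, 0.0474). These were 5 of 14 alternatives, and with a library left out the difference ranged from -1.65 to -0.96. Between the IPs it was -0.88 ± 0.39 (95% interval -1.69 to -0.064, edgeR adjusted p = 0.24).

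From input to IP gcm2 was the gene with negative values in both genotypes, none of them called: -0.30 ± 0.39 in ato (edgeR adjusted p = 0.602) and -0.68 ± 0.37 in wild type (adjusted p = 0.16). Its paralog gcm was at 7.36 and 8.69 CPM in ato IP, 10.1 and 13.9 CPM in wild-type IP, 11.6 and 7.37 CPM in ato input and 11.9 and 15.3 CPM in wild-type input. The ato libraries of gcm lay below the wild-type ones in each kind of library, and neither difference passed (IPs -0.58 ± 0.37, edgeR adjusted p = 0.477, and inputs -0.53 ± 0.36, 0.422).

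The difference between genotypes in the ratio of IP to input was tested with an interaction term. None of the 6 genes was called, and 0 of the 10224 genes were (0%), while 436 had an unadjusted p below 0.05, DESeq2 called 1 gene and limma-voom 0. With a block for the preparation, from which IP and input were both taken, 10 genes were called and again none of the 6. The value farthest from 0 among the 6 was that of sim, -1.83 ± 0.61 (95% interval -3.11 to -0.55, unadjusted p = 0.00794, edgeR adjusted p = 0.991). The others were 0.37 ± 0.54 for gcm2, 0.25 ± 0.31 for ptc, 0.068 ± 0.25 for ci, 0.053 ± 0.43 for hh and -0.027 ± 0.30 for smo. The interval of sim does not reach 0 on its own, but no value held after adjustment over all genes.

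Between genotypes, 3 other genes of the Hedgehog pathway were called: Su(fu), rdx and dco. Of 24 genes listed, 23 were tested. Over all genes, 6.97% were called in the inputs and 4.69% in the IPs. So few calls by themselves are no result about the pathway. The exostosin gene Ext2 (sotv) was listed at 0 in every library, and all of its exon bases are shared with other genes of the table. In the inputs 0 of the 23 were higher in ato and 1 was lower, Su(fu), which encodes a partner that restrains Ci. It was at 62.5 and 66.3 CPM in ato input, against 98.9 and 98.7 CPM in wild-type input (log2 -0.62 ± 0.17, edgeR adjusted p = 0.0404). The call of Su(fu) ended without ato input 1 (adjusted p = 0.16), ato input 2 (0.086), wild-type input 1 (0.243) or without wild-type input 2 (0.282), and with 1 run per library (0.212). The median of the 23 was -0.22 in the inputs and -0.14 in the IPs, beside 0.01 and -0.03 over all genes.

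In the IPs 1 of the 23 was higher in ato, the casein kinase gene dco, and 1 was lower, rdx. The gene rdx encodes an adaptor for the breakdown of Ci and is itself known as a Hedgehog target. It was at 189 and 186 CPM in ato IP, against 304 and 300 CPM in wild-type IP (-0.69 ± 0.16, edgeR adjusted p = 0.0142). This call was lost without ato IP 1 (adjusted p = 0.0927) or ato IP 2 (0.163), with 1 run per library (0.0654) and in a fit to only the groups compared (0.0682). The value of dco rested on 1 library, at 75.8 and 285 CPM in ato IP, against 51.7 and 67.8 CPM in wild-type IP (1.60 ± 0.38, adjusted p = 0.0213). Without ato IP 2 the dco difference was 0.38 (adjusted p = 0.651). It was lost too without wild-type IP 1 (1.41, 0.0732), with the DESeq2 Wald test (0.126) and with limma-voom (0.073).

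Of the genes that act on the ligand outside the cell, the glypican gene dally was higher in the IP in both genotypes. It was at 142 and 103 CPM in ato IP, against 62.8 and 53.0 CPM in ato input (1.08 ± 0.19, edgeR adjusted p = 0.00062). In wild type it was at 133 and 141 CPM in the IP, against 64.0 and 61.4 CPM in the input (1.13 ± 0.19, adjusted p = 0.000318). Of the 8 genes of ligand release and spread, 7 were tested. In the IP, 1 was higher in ato (dally), 3 were higher in wild type (dally, dlp and ttv), and 0 were lower. Over all genes, 11.9% were called higher in ato and 17.3% in wild type. The wild-type calls of dlp (0.77) and ttv (0.67) were lost without wild-type input 1 (adjusted p = 0.12 and 0.157), and that of ttv also without wild-type IP 2 (0.0661) or without wild-type input 2 (0.0612). The co-receptor genes iHog and boi were called in no comparison.

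Of the 14 genes that act inside the cell, 3 were higher and 2 lower in ato IP than in ato input. In wild-type IP against wild-type input 3 were higher and 3 lower. Over all genes, 28.2% were called in ato and 35.7% in wild type. These counts by themselves are no result about the 14 genes. Lower in both were skpA (-1.14 ± 0.17 in ato and -1.06 ± 0.17 in wild type) and Roc1a (-0.95 ± 0.18 and -0.70 ± 0.18), which encode subunits of the ubiquitin ligase that processes Ci. The kinase gene sgg was higher in both (0.90 and 0.67) and so was the acetyltransferase gene nej (0.99 and 0.66). With the exon length offset both turned or fell to near 0, sgg to 0.11 in ato and -0.17 in wild type, and nej to -0.063 and -0.45. With the block for the preparation too, nej in wild type passed in the opposite direction (-0.455, adjusted p = 0.00822). The sgg value in wild type missed the threshold without wild-type input 2 (adjusted p = 0.117), and the nej calls without ato IP 1 (0.122), ato input 2 (0.0571), wild-type IP 1 (0.298), wild-type input 1 (0.0789) or without wild-type input 2 (0.218). Called in 1 genotype were dco in ato (1.04, and -0.19 without ato IP 2) and, in wild type, Pka-C1 (0.65, adjusted p = 0.00709) and slmb (-0.57, 0.0233). The exon length offset took Pka-C1 to 0.27 (0.208). The calls of Pka-C1 and slmb were lost without wild-type IP 2 (0.0674 and 0.209), wild-type input 1 (0.0753 and 0.0621) or without wild-type input 2 (0.067 and 0.169).

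Among 8 genes known as Hedgehog targets in imaginal discs, 0 were called between genotypes in the inputs or in the IPs. The median was -0.11 in the inputs and -0.04 in the IPs. Nearest to the threshold was the homeobox gene en, at 29.4 and 30.1 CPM in ato input, against 42.8 and 57.7 CPM in wild-type input (-0.75 ± 0.23, edgeR adjusted p = 0.0564). In the IPs en was at 28.7 and 22.4 CPM in ato, against 43.0 and 45.8 CPM in wild type (-0.80 ± 0.23, adjusted p = 0.0588). Both pairs of groups were apart without overlap. The BMP ligand gene dpp and the Iroquois gene mirr were higher in the IP than in the input, dpp by 1.09 ± 0.28 in ato and 0.91 ± 0.28 in wild type, mirr by 0.73 ± 0.26 and 1.17 ± 0.27. The exon length offset took dpp to 0.56 in ato and 0.38 in wild type, neither called. The ato value of mirr was not called with that offset (0.561, edgeR adjusted p = 0.133) or with limma-voom (0.69, adjusted p = 0.0573). The dpp calls also ended without ato input 2 (adjusted p = 0.106), wild-type IP 1 (0.148), wild-type input 1 (0.119) or without wild-type input 2 (0.0737). The ato call of mirr ended without ato IP 1 (0.56), ato input 1 (0.0583) or ato input 2 (0.229).

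**Figure D4:**
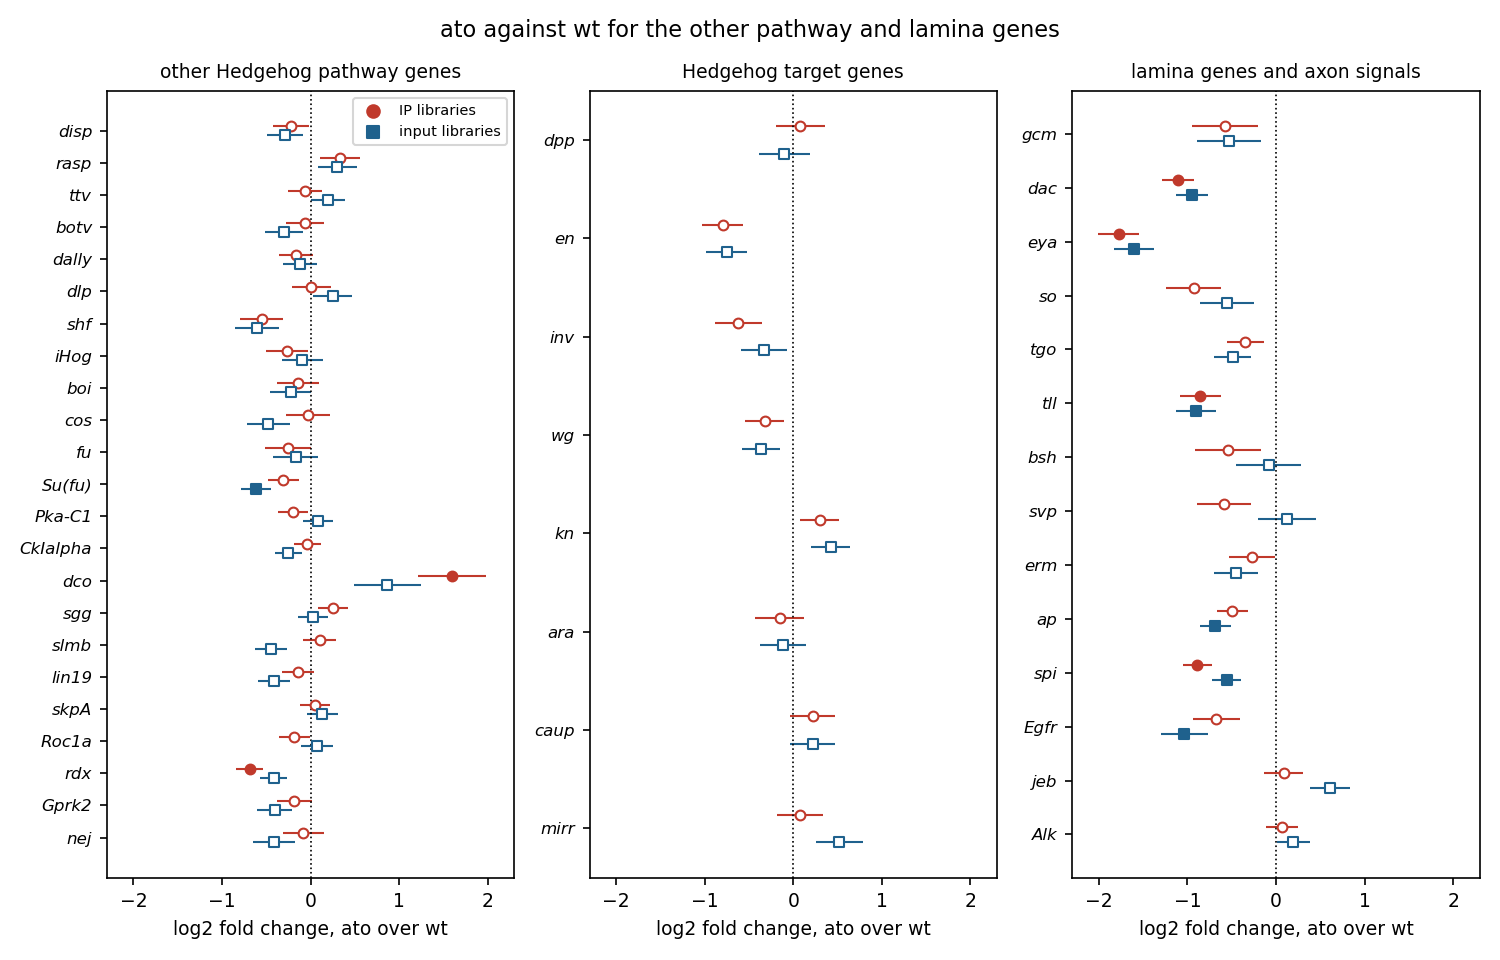
Log2 fold change of ato over wild type for the other genes of the pathway, its targets, the lamina genes and the axon signals, with the SE as bars, IP libraries as red circles and input libraries as blue squares. Filled symbols passed the adjusted threshold, and the lamina genes eya (-1.77 and -1.61), dac (-1.11 and -0.95) and tll (-0.855 and -0.91) are filled in both.

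Some lamina genes outside the 6 were lower in ato, led by eya. Of 10 such genes, 0 were called higher and 4 lower in the ato inputs, where 2.34% of all genes were called lower. In the ato IPs 0 were called higher and 3 lower, where 1.88% of all genes were called lower. The medians were -0.54 and -0.58, beside 0.01 and -0.03 over all genes. Not called in either were gcm, so, tgo, bsh, svp and erm. The libraries of so were lower in ato without overlap. Those of bsh overlapped (-0.082 in the inputs and -0.54 in the IPs). Those of svp overlapped too, at 11.1 and 10.6 CPM in ato input, against 7.69 and 12.2 CPM in wild-type input. The phosphatase and coactivator gene eya was at 35.5 and 29.2 CPM in ato input, against 98.8 and 97.8 CPM in wild-type input (3.04-fold lower, log2 -1.61 ± 0.23, edgeR adjusted p = 0.000235). In the IPs it was at 17.4 and 25.6 CPM in ato, against 83.8 and 63.1 CPM in wild type (3.42-fold lower, -1.77 ± 0.23, adjusted p = 0.000146). The transcriptional cofactor gene dac was lower by -0.95 ± 0.18 in the inputs and -1.11 ± 0.18 in the IPs. These 4 calls of eya and dac held in every alternative run. Both genes are also known from the eye disc, and dac from T4/T5 neurons.

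The nuclear receptor gene tll, which marks lamina precursors, was at 30.1 and 24.5 CPM in ato input, against 48.0 and 54.3 CPM in wild-type input (-0.91 ± 0.23, edgeR adjusted p = 0.0201). Its input call was lost without ato input 2 (adjusted p = 0.115), wild-type input 1 (0.0711) or without wild-type input 2 (0.211). Its IP call (-0.855 ± 0.23, adjusted p = 0.0432) was lost without ato IP 1 (0.153), ato IP 2 (0.256) or wild-type IP 2 (0.175) and in 4 other alternatives. The LIM homeobox gene ap was lower in the inputs (-0.68 ± 0.17, adjusted p = 0.0224), a call that ended without any 1 of the 4 inputs (adjusted p = 0.0537 to 0.283). The partner of Sim, encoded by tgo, passed in neither comparison of the genotypes (inputs -0.49 ± 0.21, IPs -0.345 ± 0.21). From input to IP tgo was lower in both genotypes, by -1.04 ± 0.21 in ato and -1.18 ± 0.21 in wild type, the reverse of the sign of sim in wild type.

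Of 9 glial markers, 4 were higher in ato, and Gs2 and nrv2 made up much of the summed level. Summed over the 9 genes, the level was 1414 and 1631 CPM in ato input, against 914 and 822 CPM in wild-type input, and 1414 and 1615 CPM in ato IP, against 911 and 895 CPM in wild-type IP. The 4 were Gs2, CG11910, Eaat1 and nrv2 in both kinds of library, and loco was lower in the inputs (-0.71). Not called, Gli had -0.88 in the IPs and -0.79 in the inputs, without overlap, and loco had -0.67 in the IPs. The calls of Gs2 held in every alternative run, and loco was lost without any 1 of the 4 inputs (adjusted p = 0.0641 to 0.261). Without ato IP 2 the IP calls of CG11910, Eaat1 and nrv2 were lost (log2 0.726, 0.703 and 0.704). Their input calls were lost without wild-type input 2 (0.896, 0.775 and 0.655). Also lost were the IP calls of CG11910 without wild-type IP 1 (0.813) and of Eaat1 without wild-type IP 2 (0.771). The input calls of CG11910 (0.638) and nrv2 (0.617) ended without ato input 2, and that of nrv2 without wild-type input 1 (0.886). The glial master gene repo, which the gcm genes are known to switch on, was not called between genotypes. The part of these cells in the values of gcm2 and sim was not tested.

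Photoreceptor axons are known to bring further signals to the optic lobe. The EGF ligand gene spi was at 186 and 217 CPM in ato input, against 301 and 291 CPM in wild-type input (-0.56 ± 0.16, edgeR adjusted p = 0.048). In the IPs it was at 232 and 278 CPM in ato, against 478 and 466 CPM in wild type (-0.89 ± 0.16, adjusted p = 0.00318). Its receptor gene Egfr was lower in the ato inputs (-1.04 ± 0.27, adjusted p = 0.023), and the ligand gene jeb and its receptor gene Alk were not called between genotypes. The input call of spi was lost without ato input 1 (0.236), ato input 2 (0.0573), wild-type input 1 (0.282) or without wild-type input 2 (0.26), with 1 run per library (0.0709) and among genes with a mean of at least 10 CPM (0.058), and the IP call without ato IP 1 (0.0571). That of Egfr was lost without ato input 1 (0.222) or without wild-type input 2 (0.21). Both jeb (1.38 ± 0.22 in ato and 1.90 ± 0.23 in wild type) and Alk (1.13 ± 0.18 and 1.26 ± 0.18) were higher in the IP than in the input. With the exon length offset the ato value of Alk was 0.39 (adjusted p = 0.0762).

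Across the 8 libraries, the levels of hh and ptc were the most alike among the 6 genes (Pearson r = 0.84 of log2 CPM), followed by ptc and ci (0.80) and hh and ci (0.77). The least alike were smo and gcm2 (0.02). These values describe 8 libraries that share group and scaling, and carry no test. Among the 7238 genes with a mean of at least 10 CPM (7239 for sim and gcm2), the gene most like hh was Hr39 (r = 0.983), at 120 CPM in ato IP, 206 in wild-type IP, 79.2 in ato input and 166 in wild-type input. It was followed by CG5167 (0.980) and ssp3 (0.979). Most like ptc were CG17838 (0.982), Eip93F (0.980) and emp (0.978), and most like ci were Adar (0.985), numb (0.980) and CG12734 (0.978). For gcm2 they were bip1 (0.973), CG10440 (0.967) and the lamina gene tll (0.961). Lower values came out for sim, with Duox (0.941), CG6613 (0.941) and CG1124 (0.919), and for smo, with Npc1a (0.901), CG15744 (0.894) and CG7149 (0.882).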

How the data were processed

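Raw counts per gene were deposited for 32 runs, which the submitters' processing notes tie to TopHat2 2.0.12 and featureCounts 1.4.4. The file headers show a count over exons of a dm3 annotation, with a mapping quality of at least 5 and no option for strand, read pairs or multiple mapping. The table also gives the exon length of each gene, per the file headers. Entries of 2 (19755) outnumbered entries of 3 (7744), and whether both ends of a fragment were counted separately was not tested. If so, counting intervals, which cover counting error only, are too narrow.

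Summing 4 runs per replicate gave 8 libraries. Runs of a library differed less (chi-square over its degrees of freedom 1.78 to 1.92) than replicates did (9.48 to 31.3) and are no replicates. Nothing in the labels says more of the replicates than their number, so p-values measure the spread between these libraries. The labels' protocols take IP and input from 1 homogenate, so the numbers pair them within a genotype (correlation of deviations 0.127 in ato and 0.102 in wild type). Across genotypes they are only numbers.

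Tests used edgeR 4.0.16 in R 4.3.3 (filterByExpr, TMM, quasi-likelihood F tests, 1 model over the 4 groups, 10224 genes tested, common biological coefficient of variation 0.203), with Benjamini-Hochberg adjustment and a threshold of 0.05. The SE was derived from the fold change and its F value. The script was tested on simulated data. Alternatives were DESeq2 1.42.0, limma-voom 3.58.1, other scalings, filters, blocks, an exon length offset, 1 run per library and each library left out.

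The members, the gene lists and the rule for named genes were chosen with earlier results of these data known. That rule took all 6 genes, up to 4 called genes per list and comparison, every gene behind a count of 5 or fewer, and the 3 genes most like each member. The genes en, gcm and ninaE, and those named as not called, were added after their values were seen. Names matched as deposited, and 6 by synonym. No sequences are shown.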

Additional observations from a re-analysis of the deposited data

How the results depend on the processing

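Depth limits sim and gcm2 most, with 25 to 196 counts per library. Of 458 values of the 6 genes under alternatives, 391 kept their direction and their side of the threshold, 23 lost a call, 11 gained one and 33 turned sign. The count called in wild-type IP against input (2) was 1 with a mean of at least 10 CPM, the exon length offset, that offset with the replicate block, and 1 run per library, and 0 to 2 with a library left out. In ato IP against input (1) it was 2 with the DESeq2 Wald test and 1 with any library left out. Between the IPs (1) it was 2 with no filter, with the replicate block and with the length offset and block (hh at -1.11 and -1.06), 0 with a mean of at least 10 CPM, only the groups compared or 1 run per library, and 0 to 2 with a library left out. Between the inputs (2) it was 3, with gcm2 added, under library size alone, no filter, the DESeq2 Wald test, limma-voom and only the groups compared, 1 with a mean of at least 10 CPM or the length offset, 0 with 1 run per library, and 0 to 1 with a library left out. Neither sim nor gcm2 has a value under the 10 CPM filter. The replicate block changed no other call of the 6 genes, and between genotypes it joins libraries that share only a number.

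With the exon length offset, alone and with the replicate block, values turned for smo (-0.15 and -0.145 in wild-type IP over input, -0.168 and -0.177 in ato, 0.036 and 0.032 between the IPs, 0.054 and 0.065 between the inputs), ci (-0.18 and -0.18 in wild type, -0.092 and -0.089 in ato), nej (-0.452 and -0.455, -0.063 and -0.051) and sgg in wild type (-0.175 and -0.17). With 1 run per library smo turned to -0.112 (wild-type IP over input), 0.057 (IPs) and 0.214 (interaction), and sim to -0.173 (inputs). With a library left out, smo ranged from -0.107 to 0.21 in wild-type IP over input, -0.136 to 0.208 in ato, -0.247 to 0.096 between the IPs, -0.195 to 0.091 between the inputs and -0.181 to 0.17 in the interaction. In ato IP over input, sim ranged from -1.175 to 0.026, gcm2 from -0.615 to 0.085 and dco from -0.19 to 1.711. In the interaction, hh ranged from -0.329 to 0.422 and ci from -0.057 to 0.281. The cause was not tested.

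Besides the interaction counts of 1 (DESeq2) and 10 (replicate block), counts over all genes moved by more than 1.5 times in these cases. Between the IPs (480) they were 808 with no filter, 831 with the length offset and block and 234 without ato IP 2. Between the inputs (713) they were 1076 with no filter and 321 to 442 without ato input 1 or either wild-type input. In wild-type IP over input (3655) they were 2065 and 2286 without an input, and in ato (2886) 1689 and 1706 without ato IP 1 or ato input 1. In the interaction (0) they were 9 with no filter, 29 with the length offset and block, and 2 and 3 without wild-type IP 2 or wild-type input 1. DESeq2 size factors moved the median of all genes by 0.107 in ato IP over input. There 52% of the called genes were higher, against 42.2% of the called genes with TMM. No call of the 6 genes changed with these size factors.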
